A study of Mus musculus with 5 samples.

Results

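The guanylate-binding protein (GBP) genes of the mouse were followed through a comparison of resting and active cells of the hair pigment lineage. The 10 genes were selected on their symbols and with their measured difference between these libraries already known, so that difference is described here without a test: Gbp2, Gbp3, Gbp4, Gbp5, Gbp6, Gbp7, Gbp8, Gbp9, Gbp10 and Gbp11. All 10 were in the table of 24100 genes and all 10 passed the filter on low counts, Gbp8 and Gbp11 only through their level in the quiescent libraries. Quiescent melanocyte stem cells (McSC) were sorted from back skin of male Dct-eGFP+ mice of mixed CD1/C57Bl6J background in the second telogen, the resting phase of the hair cycle, at postnatal days 60 and 62 (n = 2 libraries, each from 4 pooled males). Melanocytes came from male Dct-EGFP+ Lef1-RFP+ mice of the same mixed background at postnatal day 10 in full anagen, the growth phase (n = 3 libraries, from 3, 2 and 4 pooled males). Both sorts took cells with the green Dct reporter and medium to low integrin α6, and discarded cells with CD31, CD45, CD140a, Sca1 or CD34. The melanocyte sort alone also required the Lef1 reporter and c-Kit. The age of the mice, their reporters, the phase of the hair cycle and the sorting gate changed together and cannot be told apart in any difference below, and in sorted bulk cells neither can fewer expressing cells and less RNA per cell.

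GBPs are large GTPases of the dynamin superfamily and are among the genes most strongly induced by interferon-gamma. They assemble on the vacuoles or surfaces of intracellular pathogens, help to break them open, and feed bacterial products to inflammasomes, the complexes that trigger inflammatory cell death. Interferon signals reach these genes through STAT and IRF factors, which bind interferon-stimulated response elements (ISRE) and gamma-activated sites in promoters. The mouse genes lie in a pair of clusters. Gbp5, Gbp7, Gbp3 and Gbp2 lie on chromosome 3 between 142496934 and 142638008, with Gbp2b, which is not in the list, between Gbp3 and Gbp2. Gbp8, Gbp9, Gbp4, Gbp10, Gbp6 and Gbp11 lie on chromosome 5 between 105012513 and 105346476 (GRCm38). Gbp11 is annotated by RefSeq as a transcribed pseudogene and the other 9 as protein-coding.

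Promoter windows of 4 of the 10 genes, all from the chromosome 3 cluster, were in the RefSeq promoter table (build GRCm38.p6), as was that of Gbp2b. The stretches around the ISRE core are shown because they are the interferon-responsive element that these genes share. Capitals mark matches to the core, searched on both strands as GAAA, any 2 bases and GAAA again; all lie on the reverse strand and so read TTTC, 2 bases, TTTC. Each line gives the plus strand, 5′ to 3′, with 40 bases or fewer on either side.
Gbp2 (chr3:142620564-142620653): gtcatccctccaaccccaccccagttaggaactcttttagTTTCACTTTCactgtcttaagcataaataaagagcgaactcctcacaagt
Gbp7 (chr3:142530243-142530332): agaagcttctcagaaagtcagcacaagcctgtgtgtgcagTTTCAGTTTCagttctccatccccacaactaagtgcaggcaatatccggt
Gbp3 (chr3:142559959-142560043): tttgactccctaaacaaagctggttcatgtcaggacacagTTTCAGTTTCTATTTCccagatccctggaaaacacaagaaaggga
Gbp5 (chr3:142496729-142496818): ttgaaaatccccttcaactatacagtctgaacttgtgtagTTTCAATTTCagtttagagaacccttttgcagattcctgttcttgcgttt
Gbp2b (chr3:142594670-142594759): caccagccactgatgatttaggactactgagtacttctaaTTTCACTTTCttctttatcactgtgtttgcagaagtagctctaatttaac

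Relative to the start used for each window, the match begins at position -59 in Gbp2, -53 in Gbp7, -45 in Gbp3, -165 in Gbp5 and -137 in Gbp2b. For Gbp3 and Gbp2b that start lies downstream of the annotated gene start (142560016 and 142594816), so their matches lie closer to the gene start. Gbp3 has 2 overlapping matches, which together span 16 bases, and a further Gbp3 window, of another start, has none. Of 32851 promoter windows in the table, 2.98% held the ISRE core within 250 bases before the start, against 4 of the 5 windows of listed genes. By gene, the core was in 3.46% of 27025 genes, against all 4 of the listed genes that have a window. The gamma-activated site TTCNNNGAA, a sequence that reads the same on both strands, was found in Gbp5 and Gbp7 at 2 places each. Over the whole table it was in 7.02% of windows and 8.13% of genes. It was not in the windows of Gbp2 or Gbp3. These are matches of letters, and the files hold no measure of factor binding.

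Total counts ranged from 17512381 to 124530834 per library, so that 3 counts corresponded to between 0.0268 and 0.160 CPM (counts set relative to library size, scaled by TMM). The 10 genes held 20816 and 24964 counts in the quiescent McSC libraries, against 656, 1265 and 420 counts in the melanocyte libraries. Their values in the melanocyte libraries therefore rest on few reads. Markers of the pigment lineage checked the sort: 8 such genes summed to 19060 and 20300 CPM in quiescent McSC, and to 2996, 17600 and 19160 CPM in melanocyte replicates 1 to 3. The sum is carried by Dct, Tyrp1 and Pmel; Mitf (1105 ± 102 against 101 ± 50.7 CPM), Kit (1599 ± 82.1 against 365 ± 181 CPM) and Sox10 (456 ± 156 against 130 ± 79.1 CPM) were lower in melanocytes and so moved with the GBP genes; their part in the result was not tested. Of the 8, 0 were called higher in melanocytes, or 4 without melanocyte replicate 1. Melanocyte replicate 1 stands apart by its low pigment-lineage and high fibroblast markers. Log2 fold changes below are melanocyte minus quiescent McSC with their standard error (SE).

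On chromosome 3, Gbp2 differed most. Gbp2, which in mice helps to restrict the parasite Toxoplasma, stood at 152 and 102 CPM in the quiescent McSC libraries and at 1.78, 1.51 and 0.962 CPM in melanocyte replicates 1 to 3. The groups were far apart, with a mean of 127 ± 35.3 (SD, n = 2) against 1.42 ± 0.415 CPM (SD, n = 3) and a log2 fold change of -6.43 ± 0.29. Gbp7, linked in mouse macrophages to assembly of the phagocyte oxidase, stood at 80.6 and 54.2 CPM in quiescent McSC and at 3.13, 4.24 and 5.99 CPM in melanocytes (-3.94 ± 0.31). Gbp3 stood at 21.8 and 11.9 CPM against 1.73, 1.55 and 2.14 CPM (-3.23 ± 0.33). In these 3 genes every quiescent McSC library lay well above every melanocyte library.

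Gbp5, known in macrophages for promoting the NLRP3 inflammasome, did not follow them. It stood at 2.68 and 1.71 CPM in quiescent McSC and at 1.04, 0.498 and 1.82 CPM in melanocytes. Melanocyte replicate 3 lay above quiescent McSC replicate 2, so the groups overlapped (-1.02 ± 0.58). Gbp5 thus had the smallest difference of the chromosome 3 genes in the list. Its promoter window holds both motifs, and a relation of motifs to fold change was not tested.

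**Figure D1:**
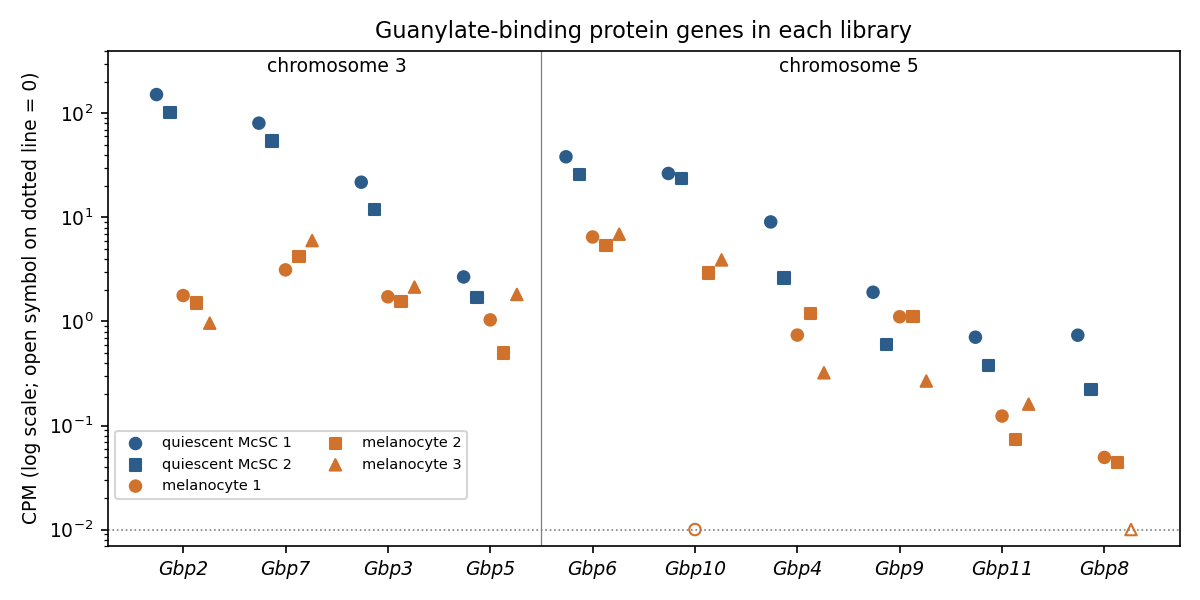
CPM (log scale) of each of the 10 genes in each of the 5 libraries; blue symbols are quiescent McSC, orange symbols melanocytes, and open symbols on the dotted line are values of 0. Both quiescent McSC libraries lie above all 3 melanocyte libraries in every gene except Gbp5 and Gbp9, and Gbp2 has the widest gap, from 102 down to 1.78 CPM.

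On chromosome 5, Gbp6 and Gbp10 carried most of the reads. Gbp6 stood at 38.3 and 25.7 CPM in quiescent McSC and at 6.49, 5.40 and 6.90 CPM in melanocytes (-2.36 ± 0.23). Among the 10 genes Gbp6 had the highest level in melanocytes, and its 3 melanocyte libraries lay close together. Gbp10 stood at 26.5 and 23.8 CPM in quiescent McSC and at 0, 2.93 and 3.90 CPM in melanocyte replicates 1 to 3 (-3.50 ± 1.24, or -2.90 without melanocyte replicate 1, -5.09 with a replicate block and -5.62 by limma-voom). Its groups did not overlap, but its melanocyte libraries spread more than those of Gbp6.

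Gbp4, reported in mice to restrain IRF7, stood at 9.05 and 2.62 CPM in quiescent McSC and at 0.740, 1.19 and 0.321 CPM in melanocytes (-2.89 ± 0.69). Its quiescent McSC libraries differed 3.46-fold from each other, and the fold change was -1.75 without replicate 1 of that group and -3.54 without replicate 2. Gbp9 stood at 1.91 and 0.598 CPM in quiescent McSC and at 1.11, 1.11 and 0.267 CPM in melanocytes. Its groups overlapped (-0.53 ± 0.73), and the sign turned without quiescent McSC replicate 1 (0.52). Gbp8 was counted 46 and 25 times in quiescent McSC against 2, 3 and 0 times in melanocytes (-3.57 ± 0.87, or -2.51 without quiescent McSC replicate 1 and -4.20 without replicate 2). The pseudogene Gbp11 had 44 and 42 counts against 5, 5 and 3 (-2.27 ± 0.58). Both genes were near the lower end of what these libraries can measure, under 1 CPM everywhere.

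The chromosome 5 genes are close copies of each other, which limits how far their counts can be separated. The coding sequences of Gbp6 and Gbp10 are 98.4% identical over 1833 bases, and 58.2% of the 50-base windows of the one also occur in transcripts of the other. For Gbp4, Gbp8, Gbp9 and Gbp11 the closest relative is 92.9%, 93.9%, 90.7% and 93.9% identical, and between 18.4% and 29.0% of windows are shared with another GBP gene. The chromosome 3 genes are more distinct: the closest relative of Gbp2 is Gbp2b at 82.5%, that of Gbp7 is Gbp3 at 78.3%, and Gbp5 shares no window with the other GBP genes. In the GENCODE annotation, Gbp8 and Gbp9 also have transcripts that start at the position of Gbp4, and how reads of such overlapping transcripts were assigned is not stated.

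The split between Gbp6 and Gbp10 differed between libraries. Gbp10 took 40.9% and 48.0% of the pair's counts in the quiescent McSC libraries, against 35.2% and 36.1% in melanocyte replicates 2 and 3. In melanocyte replicate 1 it took 0 of 263 counts, which allows a share of up to 1.14% for counting error only. At the lower of the other 2 melanocyte levels that library would have held 119 counts of Gbp10. The related interferon-induced GTPase genes Tgtp1 and Tgtp2, also a near-identical pair, likewise split unevenly in melanocytes: Tgtp1 took 7 of 7 counts in replicate 1, 0 of 14 in replicate 2 and 0 of 8 in replicate 3. Whether reads were assigned to the wrong copy was not tested. The sum of Gbp6 and Gbp10 does not depend on the split, and stood at 64.7 and 49.5 CPM in quiescent McSC and at 6.49, 8.33 and 10.8 CPM in melanocytes (-2.75 ± 0.24).

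**Figure D2:**
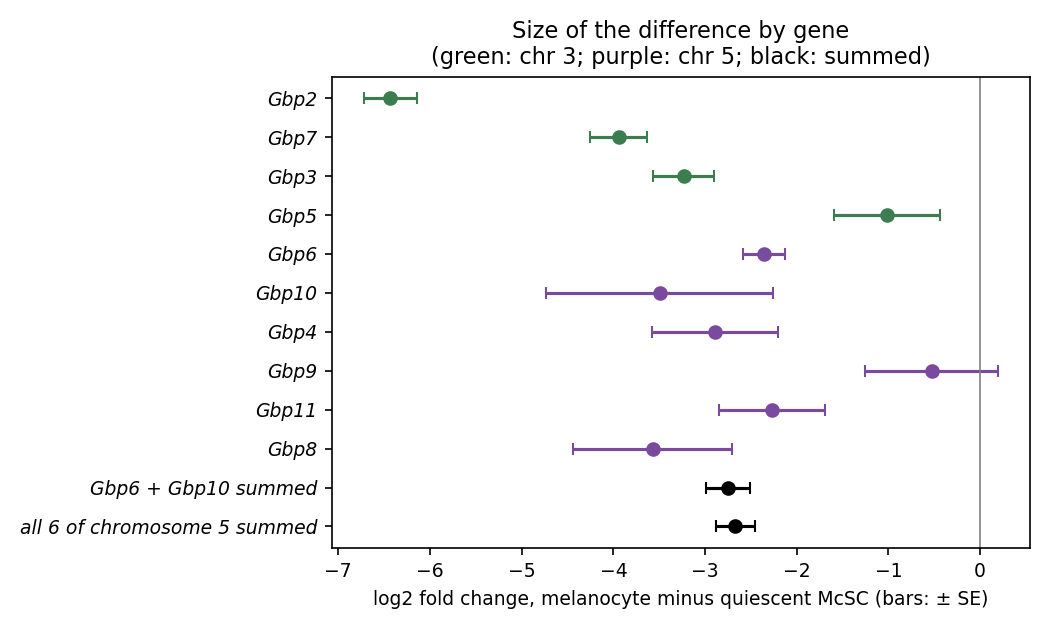
Log2 fold change (melanocyte minus quiescent McSC) with its SE for each gene, and for the summed counts of Gbp6 and Gbp10 and of all 6 chromosome 5 genes. Gbp2 lies farthest from 0 at -6.43, Gbp5 and Gbp9 lie closest at -1.02 and -0.53, and the sum of the chromosome 5 genes has an SE of 0.21 where Gbp10 alone has 1.24.

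Counted together, the 10 genes stood at 334 and 223 CPM in quiescent McSC and at 16.2, 18.6 and 22.4 CPM in melanocytes, a 14.6-fold ratio of means. The 4 chromosome 3 genes stood at 257 and 170 CPM against 7.67, 7.80 and 10.9 CPM, a 24.3-fold ratio. The 6 chromosome 5 genes stood at 77.1 and 53.3 CPM against 8.51, 10.8 and 11.6 CPM, a 6.35-fold ratio. The 3 melanocyte libraries were close to each other in all 3 sums, also melanocyte replicate 1. Of the 10 genes, 7 had an adjusted p under the threshold with a higher level in quiescent McSC, and 0 with a higher level in melanocytes. Over all 16953 tested genes those shares were 26.2% and 29.1%, or 55.4% in either direction. The 7 became 4 without quiescent McSC replicate 1. In 8 of the 10 genes both quiescent McSC libraries lay above all 3 melanocyte libraries, beside 36.4% of tested genes. The median log2 fold change of the 10 was -3.06, beside 0.03 over all tested genes. As the genes were chosen with this contrast known, nothing is read from these counts.

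The make-up of the family differed between the groups when levels were set per kilobase of exon. Gbp2 made up 62.1% of the summed level per kilobase in both quiescent McSC libraries, and 20.7%, 15.1% and 8.14% in melanocyte replicates 1 to 3. Gbp6 made up 6.62% and 6.63% in quiescent McSC and 31.9%, 22.7% and 24.7% in melanocytes, the first of these in the library without counts of Gbp10. Gbp7 kept a similar place in both, at 14.8% in each quiescent McSC library and 16.4%, 18.9% and 22.7% in melanocytes. The 2 quiescent McSC libraries had nearly the same shares of these 3 genes at different total levels, while Gbp10 had 7.04% and 9.42% and Gbp4 1.24% and 0.536%. These shares depend on the length used, here that of merged exons. Of the plain counts, Gbp2 held 45.4% and 45.7% in quiescent McSC and 11%, 8.14% and 4.29% in melanocytes. Per kilobase of coding sequence the quiescent McSC means were 71.76 CPM for Gbp2, 35.2 for Gbp7 and 17.45 for Gbp6, a smaller lead of Gbp2.

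In quiescent McSC the order by level per kilobase was led by Gbp2, at 50.4 ± 14.03 CPM per kilobase (SD, n = 2), and Gbp7, at 12.0 ± 3.32. Next came Gbp10 at 6.48 ± 0.492, Gbp6 at 5.37 ± 1.49 and Gbp3 at 5.16 ± 2.15. Compared within each library, Gbp10 had rank 3 in both, while Gbp6 and Gbp3 changed places. Their ranges overlapped and n = 2, so their order is not firmly resolved. Below them were Gbp4 (0.778 ± 0.607), Gbp5 (0.330 ± 0.104), Gbp9 (0.242 ± 0.179), Gbp11 (0.201 ± 0.0869) and Gbp8 (0.140 ± 0.106), each overlapping its neighbour in range. Within each library Gbp4, Gbp5 and Gbp8 kept ranks 6, 7 and 10, while Gbp9 and Gbp11 changed places. In melanocytes Gbp6 led in all 3 libraries, at 1.05 ± 0.1303 CPM per kilobase (SD, n = 3). Gbp2, the leader in quiescent McSC, had rank 2 in melanocyte replicate 1, rank 4 in replicate 2 and rank 5 in replicate 3. Per kilobase of coding sequence Gbp2 and Gbp7 again led in quiescent McSC and Gbp6 in melanocytes, while Gbp6 and Gbp10, and Gbp8 and Gbp11, changed places in quiescent McSC.

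**Figure D3:**
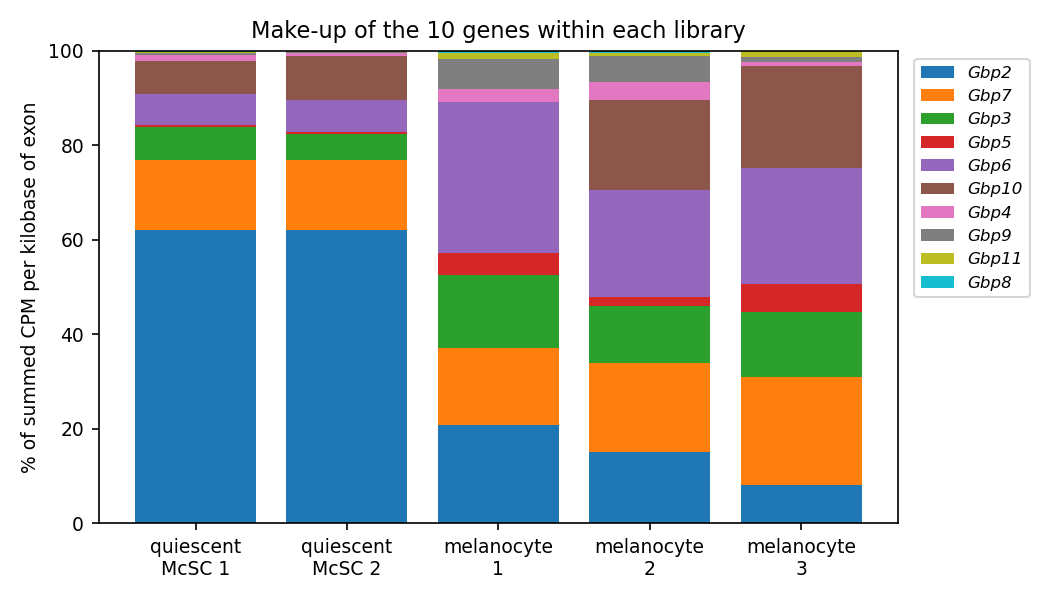
Share of each gene in the summed CPM per kilobase of exon of the 10 genes, in each library (bars add up to 100%). With merged exon lengths, Gbp2 fills 62.1% of both quiescent McSC bars and between 8.14% and 20.7% of the melanocyte bars, where Gbp6 is the largest part of each. Other lengths give other shares.

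Quiescent McSC replicate 1 stood above replicate 2 in all 10 genes. The ratio was lowest in Gbp10 (1.11) and Gbp7 (1.49) and highest in Gbp9 (3.19), Gbp8 (3.31) and Gbp4 (3.46), with a median of 1.70. Over 16666 tested genes with a finite ratio the median was 0.988 and 47.3% lay above 1. With 1 library on each side the difference has no replicate check. The summed leukocyte markers stood at 57.5 CPM in replicate 1 and 40.4 CPM in replicate 2, though single markers went both ways, and the summed keratinocyte markers at 3163 and 4329 CPM. Fibroblast (40.7 and 11.8 CPM) and hair follicle epithelium sums (50.2 and 19.4 CPM) were also higher in replicate 1. Endothelial (11.5 and 13.1 CPM) and pigment-lineage sums (19060 and 20300 CPM) were lower there. Their part in the difference was not tested.

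Gbp2b, the neighbour of Gbp2 on chromosome 3, was counted 131 and 106 times in quiescent McSC against 0, 1 and 0 times in melanocytes. It passed the filter on low counts only through the quiescent libraries, so its test is no independent support. The ratio of summed counts at scaled library size was 173, with an exact 95% conditional interval from 30.8 to 6871 that covers counting error only. For all lists of genes that follow, the shares over all tested genes were 26.2% called higher in quiescent McSC and 29.1% in melanocytes. Among 8 tested relatives of the dynamin superfamily and neighbours, Gbp2b included, the level was higher in quiescent McSC for 5 and in melanocytes for 2 (median -1.87), and the 2 became 0 without quiescent McSC replicate 2 or melanocyte replicate 2. The antiviral dynamin-like GTPase genes Mx2 (37.0 ± 3.92 against 0.977 ± 0.609 CPM; log2 fold change -5.36 ± 0.49, edgeR adjusted p = 0.000377) and Mx1 (-2.81 ± 0.24, adjusted p = 0.000302) were higher in quiescent McSC. The atlastins, which fuse membranes of the endoplasmic reticulum, moved both ways: Atl2 was higher in quiescent McSC (-1.14 ± 0.12, adjusted p = 0.000647) and Atl3 in melanocytes (0.43 ± 0.12, adjusted p = 0.0209). The interferon-inducible very large GTPase gene Gvin1 was the other gene higher in melanocytes, at 1.05 ± 0.173 against 0.178 ± 0.202 CPM (adjusted p = 0.0429). Gvin1 had 20 and 4 counts in quiescent McSC and passed the filter only through the melanocyte libraries, so its test is no independent support either.

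The immunity-related GTPases, which act beside GBPs on pathogen vacuoles in the mouse, were lower in melanocytes in nearly every case. Of 8 tested, 7 were higher in quiescent McSC, 0 in melanocytes and 1, Irgq, was not called (median -6.46). Of the 7, Tgtp1 had 7, 0 and 0 counts in melanocytes and passed the filter only through the quiescent libraries. Its call is therefore no independent support. Irgm2 stood at 57.4 ± 0.372 against 1.85 ± 0.251 CPM (-4.94 ± 0.17, adjusted p = 3.65e-05) and Igtp at 51.1 ± 8.42 against 1.31 ± 0.144 CPM (-5.28 ± 0.20, adjusted p = 4.31e-05). Irgm1, a regulatory member, reached 520 ± 33.8 CPM in quiescent McSC against 4.94 ± 1.84 CPM in melanocytes. No test compared their differences with those of the GBP genes.

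Genes that carry or restrain the interferon signal were mostly higher in quiescent McSC too. The list held 18 genes for receptors, kinases, transcription regulators and inhibitors of this signal. Of these, 14 had the higher level in quiescent McSC, 1 had it in melanocytes, and 3 were not called (median -1.73). The inhibitor genes Socs3 (-5.62 ± 0.41), Socs1 (-1.92 ± 0.44) and Ptpn2 (-1.35 ± 0.11) were among the 14, so this count is not one of signal carriers alone. Irf1, the factor that drives many GBP promoters, stood at 360 ± 51.6 against 15.6 ± 2.41 CPM (-4.54 ± 0.18, adjusted p = 4.49e-05). Stat2, a subunit of the factor that binds the ISRE (-3.02 ± 0.13, adjusted p = 5.51e-05), and the interferon receptor gene Ifnar2 (-2.92 ± 0.14, adjusted p = 6.4e-05) followed. The 2 subunits of the interferon-gamma receptor went opposite ways: Ifngr1 was higher in quiescent McSC (42.3 ± 0.00914 against 19.8 ± 3.31 CPM) and Ifngr2 in melanocytes (55.6 ± 9.38 against 11.7 ± 0.506 CPM; adjusted p = 0.000265).

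Genes for the ligands were nearly without counts. Ifng had no count in any of the 5 libraries, which allows at most 0.0268 to 0.160 CPM depending on the library. Of 14 genes for interferons and the cytokines linked to them, 9 had no count in any library, Ifng and Ifnb1 among them, and 1 passed the filter. That gene was Il18, a cytokine activated by caspase-1, at 8.47 ± 1.88 CPM in quiescent McSC against 0.193 ± 0.153 CPM in melanocytes (-5.42 ± 0.59, adjusted p = 0.000691). With 15, 7 and 2 counts in melanocytes, Il18 passed the filter only through the quiescent libraries, so its test is no independent support.

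Downstream of the GBPs, genes of inflammasomes and lytic cell death went both ways. Their counts stand beside 26.2% of all tested genes called higher in quiescent McSC and 29.1% in melanocytes. Of 15 tested, 4 were higher in quiescent McSC, 2 in melanocytes and 9 were not called (median 0.29, with a negative sign under several alternatives); the 2 became 4 without melanocyte replicate 1 and 1 without either quiescent McSC library. Casp4, which encodes caspase-11, the sensor that GBPs expose to bacterial lipopolysaccharide, had the largest difference, at 287 ± 22.5 against 1.39 ± 0.239 CPM (-7.72 ± 0.19, adjusted p = 3.65e-05). Its substrate Gsdmd, the pore former of pyroptosis, was also higher in quiescent McSC (16.3 ± 2.07 against 3.57 ± 0.965 CPM; adjusted p = 0.00117). Ripk3, a kinase of necroptosis, went the other way, with a melanocyte mean of 14.5 ± 0.451 CPM against 1.64 ± 0.545 (adjusted p = 0.000398). The NLRP3 gene, which Gbp5 is linked to, was counted 6 times over the quiescent McSC and 16 times over the melanocyte libraries, and was not called.

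Enzymes that attach and process the lipid anchors used by some GBPs differed little. Of 8 prenylation genes, 2 were called higher in quiescent McSC, Rabggtb (-0.51 ± 0.12, adjusted p = 0.0135) and Fnta, the shared subunit of 2 prenyltransferases (-0.35 ± 0.12, adjusted p = 0.045). The median was -0.28, and over all tested genes 26.2% were called higher in quiescent McSC. Fnta was no longer called when melanocyte replicate 1 or 3 or any quiescent McSC library was left out (adjusted p between 0.073 and 0.169) and that of Rabggtb without quiescent McSC replicate 1 (0.103). With library size as the only scaling neither was called.

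Genes that mark or clear damaged vacuoles were more often higher in quiescent McSC. Over all tested genes, 26.2% were called higher in quiescent McSC and 29.1% in melanocytes. Of 17 tested genes of autophagy, ubiquitin tagging and galectins, 11 were higher in quiescent McSC, 1, Atg5, in melanocytes and 5 were not called (median -1.005); the 1 became 0 without either quiescent McSC library. Lgals3, which encodes a galectin that binds sugars exposed on ruptured vacuoles, stood at 2950 ± 183 against 76.8 ± 11.6 CPM (-5.26 ± 0.21, adjusted p = 4.49e-05). Trim21 (-2.73 ± 0.20, adjusted p = 0.000201) and Map1lc3b (-1.43 ± 0.13, adjusted p = 0.000394) were also higher there. Of 10 further genes of DNA sensing, ISG15 and protein partners of GBPs, 8 were higher in quiescent McSC and 1, Ywhag, in melanocytes (median -1.36), and the 8 became 5 without quiescent McSC replicate 1. Trex1 (-3.29 ± 0.15, adjusted p = 5.88e-05), Sting1 (-3.45 ± 0.22, adjusted p = 0.000113) and Usp18 (-4.69 ± 0.39, adjusted p = 0.000281) had the smallest p-values.

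**Figure D4:**
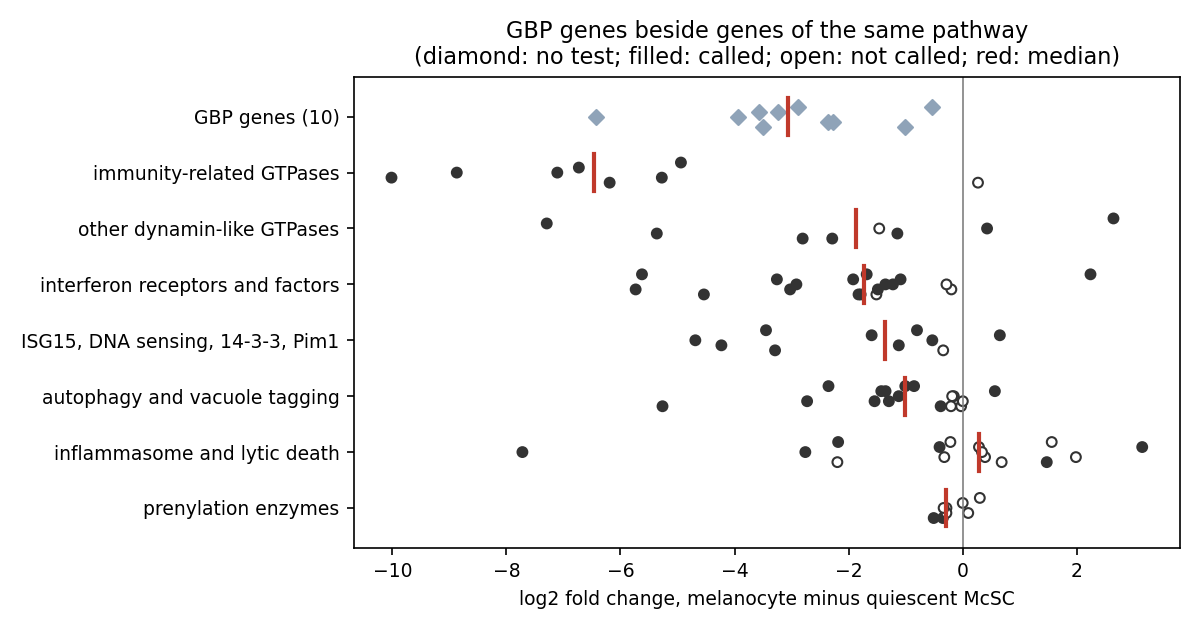
Log2 fold change (melanocyte minus quiescent McSC) of each tested gene in the GBP list and in 7 lists of the same pathway; grey diamonds are the 10 GBP genes, filled circles are called genes, open circles are not called, and red lines are medians. The immunity-related GTPases have the lowest median (-6.46), the GBP genes a median of -3.06, and the prenylation and inflammasome genes medians near 0 (-0.28 and 0.29), the latter with a spread from -7.72 to 3.15.

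Cell types rich in GBPs were traced by their markers. Leukocyte markers summed to 57.5 and 40.4 CPM in quiescent McSC and to 93.6, 52.8 and 69.5 CPM in melanocytes, and of 14 tested 7 had the higher level in melanocytes (2 with the stricter filter) and 3 the lower. The 3 became 1 without melanocyte replicate 2 or 3, without quiescent McSC replicate 1 or when scaled by library size only. They were H2-Aa (8.06 ± 3.52 against 3.34 ± 0.505 CPM), the macrophage gene Cd68 and Cd207, a marker of Langerhans cells (0.866 against 0.0358 CPM). Cd207 had 1, 2 and 1 counts in melanocytes and passed the filter only through the quiescent libraries, so its call is no independent support. Ptprc, which encodes CD45, stood at 0.128 and 0.214 CPM (8 and 24 counts) in quiescent McSC and at 2.96, 1.25 and 1.39 CPM in melanocytes. Of 5 tested T and NK cell markers 0 were called in either direction by edgeR, and 0 had an unadjusted p under 0.05; without melanocyte replicate 1, 1 was called in each direction. Their sums were 3.51 and 2.86 CPM in quiescent McSC against 3.35, 1.58 and 1.66 CPM in melanocytes. Cd3e, of T cells, was counted 0 and 8 times in quiescent McSC and stood at 0.222, 0.0587 and 0.374 CPM in melanocytes, with overlapping groups. Endothelial markers summed to 11.5 and 13.1 CPM in quiescent McSC and to 64.9, 72.1 and 38.8 CPM in melanocytes; of 10 tested, 9 had the higher level in melanocytes and 1, Esam, the lower (9.32 ± 1.68 CPM in quiescent McSC against 3.42 ± 0.748; 0 without quiescent McSC replicate 2). Pecam1 stood at 0.443 ± 0.0813 against 10.1 ± 4.79 CPM. In the same direction as the GBP genes, 5 of 10 keratinocyte markers had the higher level in quiescent McSC, while 4 had the lower. The 5 were Krt10 (959 ± 427 against 40.6 ± 28.3 CPM), Krt1 (262 ± 93.7 against 12.7 ± 12.0 CPM), Krtdap (148 ± 66.8 against 4.59 ± 4.72 CPM), Krt15 and Krt79. The 4 were Krt5 (709 ± 66.5 against 1454 ± 291 CPM), Trp63, Sfn and Dsp. The sums, 3163 and 4329 CPM in quiescent McSC and 5013, 4349 and 3629 CPM in melanocytes, mix these opposite changes. All 8 fibroblast and all 10 hair follicle epithelium markers were higher in melanocytes. Several markers higher in melanocytes, such as Cldn5 and Krt34 without a count in quiescent McSC, passed the filter only through the melanocyte libraries. Their calls are no independent support. Hair follicle epithelium markers summed to 50.2 and 19.4 CPM in quiescent McSC and to 3630, 4786 and 3355 CPM in melanocytes. Fibroblast markers summed to 40.7 and 11.8 CPM against 5283, 2026 and 1894 CPM. The source of these transcripts in the sorted cells was not tested. The summed endothelial level was thus lower in both quiescent McSC libraries and the summed leukocyte level overlapped between the groups, while H2-Aa, Cd68, Cd207, Esam and 5 keratinocyte markers moved with the GBP genes, and their part in the result was not tested.

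**Figure D5:**
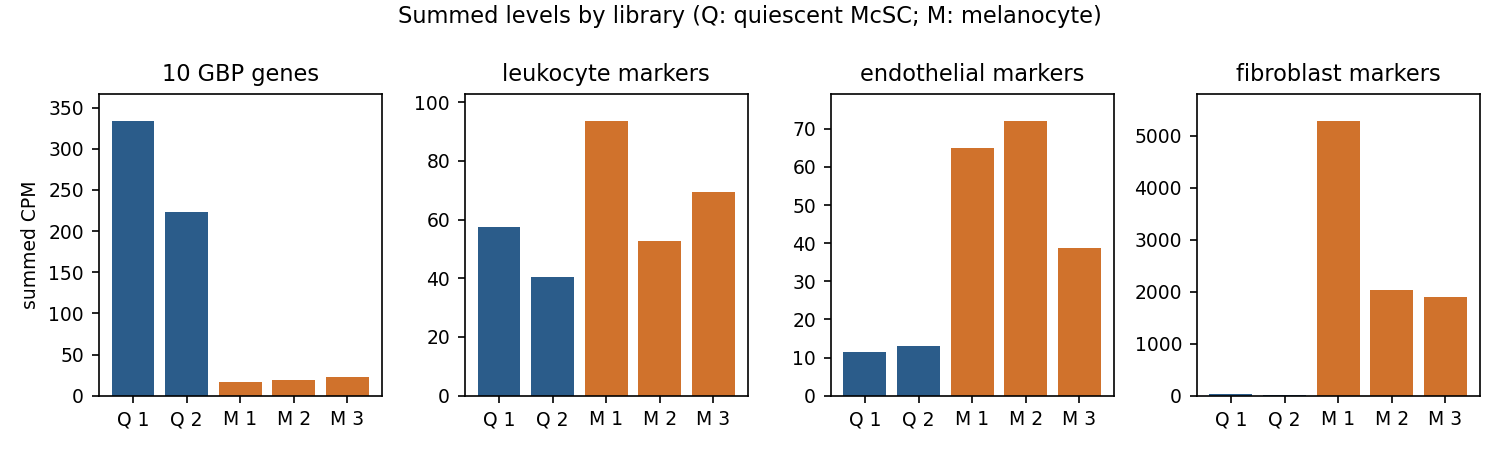
Summed CPM in each library of the 10 GBP genes and of leukocyte, endothelial and fibroblast markers; each panel has its own axis from 0. The GBP genes are high in the 2 quiescent McSC libraries (334 and 223 CPM). Endothelial (11.5 and 13.1 CPM) and fibroblast markers (40.7 and 11.8 CPM, against 1894 to 5283 CPM in melanocytes) are low there. Leukocyte sums overlap between the groups (57.5 and 40.4 CPM against 93.6, 52.8 and 69.5 CPM). Keratinocyte markers, of which 5 of 10 were higher in quiescent McSC and 4 lower, are not drawn. The part of other cells in the result was not tested.

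Genes with the most similar course over the 5 libraries were found by the root mean square difference from the mean profile of the 10 genes, on centred log2(CPM + 1). Among genes of at least 10 CPM the nearest 5 were Dusp16 (0.12), Nr1d2 (0.14), Nfe2l2 (0.15), Zfp869 (0.15) and Slc38a6 (0.16). Dusp16, the nearest, stood at 213 and 160 CPM in quiescent McSC and at 33.3, 42.3 and 38.4 CPM in melanocytes. The offset of 1 flattens the course of the low GBP genes, and with 5 libraries in 2 groups likeness mostly reflects the size of the group difference.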

How the data were processed

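Per the labels, poly-A RNA of sorted mouse skin cells was sequenced without strand information in 2 quiescent McSC and 3 melanocyte libraries. The deposited table holds raw counts per Entrez gene and library, not normalized or pooled by the authors. Per the submitters' processing notes, the build was mm10 and the tools included STAR 2.5.2a and Salmon 0.8.2. Which tool produced the counts, and with which annotation, is not given in the sources used here. Where reads match several near-identical genes, their split depends on the counting step. Of 24100 genes, 24045 matched a RefSeq symbol of GRCm38.p6 (the mm10 build).

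Genes were filtered with filterByExpr, scaled by TMM and tested with edgeR 4.0.16 (quasi-likelihood F-test, two-sided, Benjamini-Hochberg over all 16953 tested genes, threshold 0.05) in R 4.3.3, with all 5 libraries in one fit and no covariate. CPM values are TMM-scaled. A gene nearly without counts in a group passed the filter only through the other group, so its call is no independent support. SE is the absolute log2 fold change over the square root of F. The procedure was tested on simulated counts. Exon lengths are merged exons of GENCODE M21, on the same build. Coding sequences of that annotation replaced a planned comparison of proteins, whose sequences were not used here. They were aligned globally (match 2, mismatch -1). Reads distinguishing 2 genes were gauged by 50-base windows.

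The 10 genes, the pathway lists and the tests were chosen with earlier results of these data known, and the 10 genes with this very contrast in view, so their fold changes are descriptions without a p-value. Named pathway genes are up to 3 called genes of smallest p in each list, besides Gbp2b, Ptprc, Pecam1, Cd3e and Ifng; every other gene named was picked after its values were seen. Alternatives were other scalings (DESeq2's size factors, library size only, library size without the 20 most abundant genes), other filters, DESeq2 1.42.0, limma-voom (3.58.1), a replicate block, leaving out each library, coding length and summed paralogs; summing Gbp6 and Gbp10 alone was chosen after seeing the data. The libraries of a group came from separate pools of mice, per the labels.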

Additional observations from a re-analysis of the deposited data

How the results depend on the processing

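Under 8 other scalings, filters, tools or blocks and 5 fits without 1 library, Gbp9 was the only one of the 10 genes to change direction, with a log2 fold change of 0.059 under a replicate block and between -1.155 and 0.515 without 1 library. Deviations of same-numbered libraries correlated at 0.037 and -0.085. The 2 quiescent McSC libraries deviate from their mean by equal and opposite amounts, so these values are not independent. They cannot settle whether the replicate numbers pair the samples. With the block 7412 genes were called over the whole table, 7180 of them among the 9385 called without it. Without 1 library, the median of the 10 genes lay between -3.549 and -2.275, their number called higher in quiescent McSC between 4 and 8, and the log2 ratio of summed counts between -4.133 and -3.549 for all 10 and between -2.911 and -2.377 for the chromosome 5 genes. That number was 4, of 5 tested, with at least 5 CPM in 2 libraries. Genes called higher in quiescent McSC in the whole table numbered between 2955 and 4857. The stricter ISRE forms, with a C after the core or a T before its second GAAA, were each in 0.68% of windows and 0.8% of genes. Both were again in all 4 listed genes with a window.

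Small list counts moved most. Higher in melanocytes, relatives numbered 1 with the stricter filter or the block and 0 to 2 without 1 library, inflammasome genes 1, 1 and 1 to 4, and vacuole genes 0 with the block and 0 to 1. Scaling by library size, with or without the 20 most abundant genes, shifted the median of all tested genes by over 0.1, to 0.256 and 0.205. Under both, 1 immunity-related GTPase and 1 prenylation gene were higher in melanocytes and 0 prenylation genes in quiescent McSC. Prenylation genes higher in quiescent McSC numbered 4 by DESeq2, 1 without a filter, 0 with the block and 0 to 3 without 1 library, and regulators 5 to 8. The inflammasome median was -0.31 with the stricter filter, -0.007 with the block and between -0.332 and 0.301 without 1 library, and that of the interferon list between -6.321 and 0.209. The cause was not tested. Counts of 0 to 3 in melanocytes limit Gbp8, and Gbp11 is near that floor.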
